A study of Rattus norvegicus with 20 samples.

Results

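The genes of the cytosolic ribosomal proteins were followed in hippocampal RNA of female rats, by genotype and by drug treatment. Members were the symbols that read Rpl or Rps and a digit, Rplp0 to Rplp2, and Rpsa, leaving out the S6 kinases named Rps6k. The rule found 85 of the 17168 symbols in each count table, and 84 of them had reads in both tables. The exception was the pseudogene Rpl37a-ps1. The 84 members held 77 genes of ribosomal subunit proteins (46 of the large and 31 of the small subunit), 6 paralogs (Rpl3l, Rpl22l1, Rpl36al, Rpl39l, Rps27l and Rps4y2) and Rps19bp1, which codes for a protein that binds RPS19 and is no ribosomal protein.

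WTNT rats were untreated wild-type females. TGNT rats were untreated TgF344-AD females, which carry a mutant human amyloid precursor protein (the Swedish form) and a mutant human presenilin with an exon deleted, both under the prion promoter, and so not in a single cell type. TGTR rats were TgF344-AD females given diazoxide, an opener of ATP-sensitive potassium channels, together with dibenzoylmethane in their chow from day 52. All 20 rats were 4 months old, and each gave 1 library. The genotype comparison held 5 WTNT and 5 TGNT rats, and the treatment comparison 4 TGNT and 6 TGTR rats. The TGNT rats of the comparisons are different libraries in tables normalized apart, so levels were not compared across tables. The sample labels name the left hippocampus and the methods of the study the right.

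Ribosomal proteins surround the ribosomal RNA of the small subunit, which reads the mRNA, and of the large subunit, which joins the amino acids. Their mRNAs begin with a run of pyrimidines, the TOP element, through which the kinase mTORC1 and the protein LARP1 set their translation. Neurons carry ribosomes in dendrites and axons as well as in the cell body. RNA levels say nothing of how often these mRNAs are translated.

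The starts of several members show this run of pyrimidines. They are given because many subunit genes have it and the rule did not use it. Of the 84 members, 67 matched a symbol in the RefSeq promoter table (build GRCr8), and 62 of these were subunit genes. Each line shows 30 bases, 10 before the annotated start and the rest from it, on the strand of the gene, with the longest run of C and T in capitals. Where runs were equally long, as in Rps27l, the first is in capitals. The first 6 had an unadjusted p under 0.05 in a comparison below, Rplp0 codes for a protein of the stalk, and the last 2 are the paralog Rps27l and Rps19bp1. Rpl15, Rpl17 and Rpl32 also had such a p and are not shown. The genes shown are examples and were not chosen by a rule. The counts were made on build rn6, so the coordinates belong to the sequences only.
Rpl35, chr3:43165902-43165931, minus strand: CTTCCTCTTTCTCTCgaaccgggcggcctc
Rpl10a, chr20:6390523-6390552, plus strand: cttctgCCTTCTTTTCCggttcccgcagcc
Rps21, chr3:187724028-187724057, plus strand: agccaCTTCCTTTCTgtgttctccgtagac
Rps27, chr2:177964587-177964616, minus strand: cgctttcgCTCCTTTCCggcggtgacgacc
Rps28, chr7:15311314-15311343, minus strand: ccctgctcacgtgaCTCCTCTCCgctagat
Rps10, chr20:5700725-5700754, minus strand: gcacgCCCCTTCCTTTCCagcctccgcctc
Rplp0, chr12:46718371-46718400, minus strand: caccgcaCTTCTCTCgccaggcgtcctcat
Rps27l, chr8:76443648-76443677, plus strand: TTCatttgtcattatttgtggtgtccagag
Rps19bp1, chr7:113693004-113693033, minus strand: tgtgggcggggCTTggcagcatgtcggcgg

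Within the bases shown the run measured 15 bases in Rpl35, 13 in Rps10 and 9 in Rps28, and 3 bases in Rps27l and in Rps19bp1. A C followed by at least 5 bases of C or T, within 5 bases of the annotated start, was found in 36 of 62 subunit genes (58.1%) and in 9.75% of all 27457 promoters. Within 20 bases on each side of the start, CTTTC stood on the gene's strand in 48.4% of the subunit genes and 5.04% of all promoters. On either strand it stood in 31 of 62 subunit genes and in 9.79% of all promoters. CTCTT, which can overlap CTTTC, was on the gene's strand in 38.7% against 5.49%, and on either strand in 38.7% against 10.5%. CTTCC was on the gene's strand in 37.1% against 8.36%, and on either strand in 41.9% against 17.0%. Over the whole window of 300 bases, CCGGAAG stood on either strand in 32.3% of the subunit genes and 9.22% of all promoters. AAGATGGC did so in 8.06% and 3.44%, GGGCGG in 58.1% and 34.9%, and TATAAA in 9.68% and 14.3%. A match is a description of the letters and not a site.

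All 77 subunit genes were detected in the hippocampus, with a mean of at least 113.9 counts per rat in the genotype table and at least 388.4 in the treatment table. The members took 0.981% to 1.14% of the estimated counts of a rat in the genotype comparison. In the treatment comparison they took 0.977% to 1.02% in TGNT rats, and among TGTR rats the share was lowest in rat 6 (0.919%) and highest in rat 5. Totals ran from 5848458 to 9926088 estimated counts per rat in the genotype comparison and from 9215039 to 14175594 in the treatment comparison. The estimated counts of 16 members in each table were fractions in at least 1 rat, since RSEM divides reads that fit several genes, and those levels are uncertain. Rpl12, Rpl17, Rpl19, Rpl27a and Rpl28 had fractions in all 10 rats of both tables. Neuronal markers were abundant, with a summed level of at least 9066 RPM (library-scaled reads, the signal of the authors) in each rat, and Map2 had the most counts among them.

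**Figure D1:**
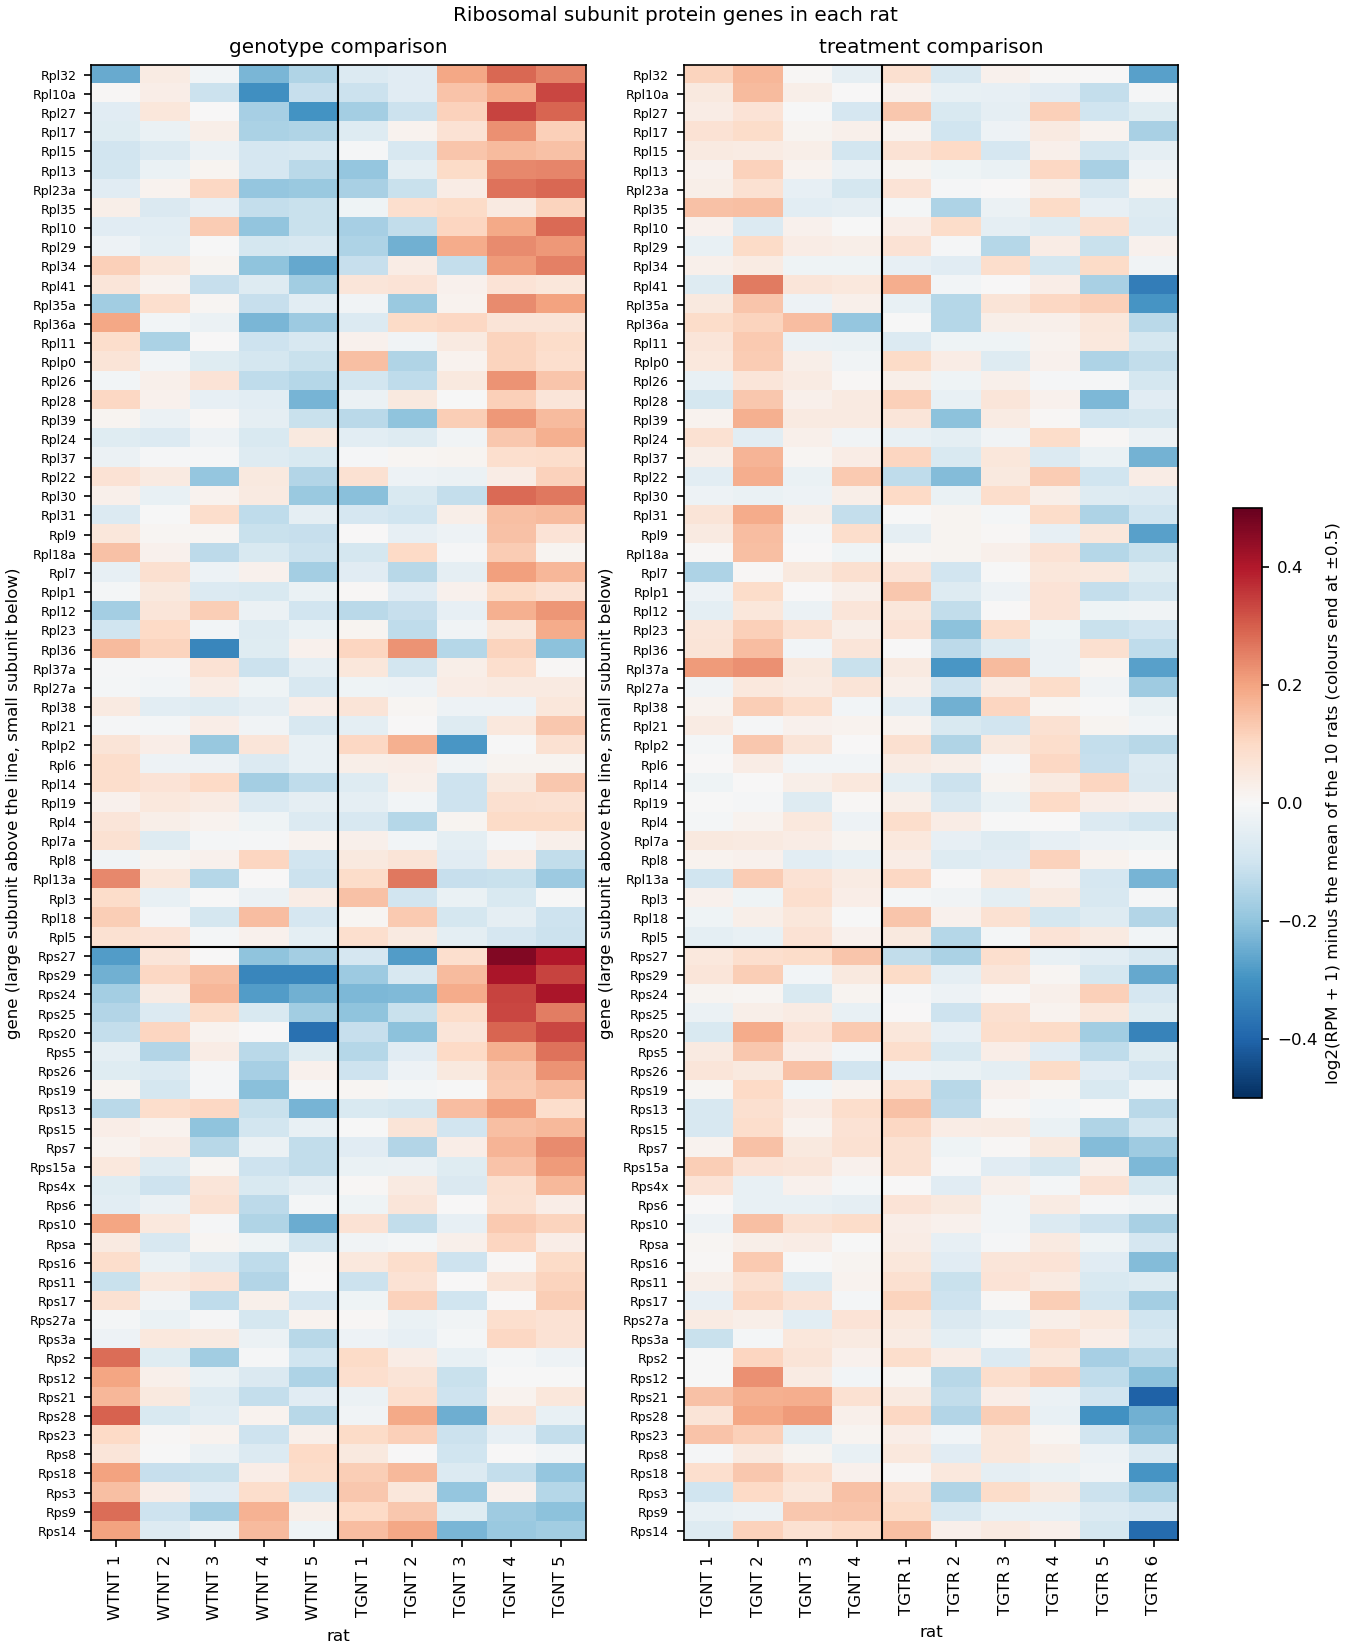
Level of the 77 ribosomal subunit protein genes (rows, large subunit above the line) in each of the 10 rats of a comparison (columns), as log2(RPM + 1) minus the mean of the 10 rats, red for higher and blue for lower. TGNT rats 4 and 5 of the genotype comparison stand out in red (64 and 62 genes above their own mean), and TGTR rat 6 in blue (4 genes above).

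The genotype comparison asks which transcripts could mark the disease early. Most ribosomal protein mRNAs had a slightly higher level in TGNT than in WTNT females and none passed the adjusted threshold. The members were highest in TGNT rats 4 and 5 and lowest in WTNT rats 4 and 5. By edgeR's quasi-likelihood test, 0 of 84 members had an adjusted p under 0.05, where 0.0137% of the 14634 genes with reads did, and the lowest adjusted p of a member was 1. Without adjustment, 5 members had a p under 0.05 and all were higher in TGNT rats. That is 5.95% of the members, against 2.02% of all genes with reads called higher, while 0 members and 1.76% of all genes were called lower. The other tools called 4 to 6 members without adjustment (DESeq2 4, edgeR's likelihood ratio and exact tests 5, limma-trend 6) and 0 with it. All these members were higher, and of all genes with reads 1.2% (DESeq2), 2.49% (likelihood ratio), 1.86% (exact) and 2.7% (limma-trend) were called higher. With the replicate number as a block 3 were called without adjustment, against 2.08% of all genes called higher. In all, 69 of 84 members had a positive log2 fold change (82.1%, against 52.0% of all genes with reads), and from 66 to 71 did under the other scalings. Their median log2 fold change was 0.06, against 0.01 over all genes with reads, and no test of the list was made.

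The summed level of the members was 10580.2, 10390.3, 10381, 9923 and 9846 RPM in WTNT rats 1 to 5. In TGNT rats 1 to 5 it was 10281, 10292, 10340.4, 11147.5 and 11121 RPM. The groups overlapped, with TGNT rats 1 to 3 inside the range of the WTNT rats and rats 4 and 5 above it. In these rats 64 and 62 of the 77 subunit genes lay above their own mean over the 10 rats, and in WTNT rats 4 and 5 13 genes did. Without TGNT rat 4 the median log2 fold change of the members was 0.03, without rat 5 it was 0.04, and 1 member had an unadjusted p under 0.05 in either case. The count was 15 without TGNT rat 1, 9 without TGNT rat 2, 1 without TGNT rat 3 or WTNT rat 4, and 2 without WTNT rat 5. Of all genes with reads, 2.36% were called higher without TGNT rat 1 and likewise 2.36% without TGNT rat 2, and the share ran from 1.23% to 3.17% over all rats left out in turn.

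**Figure D2:**
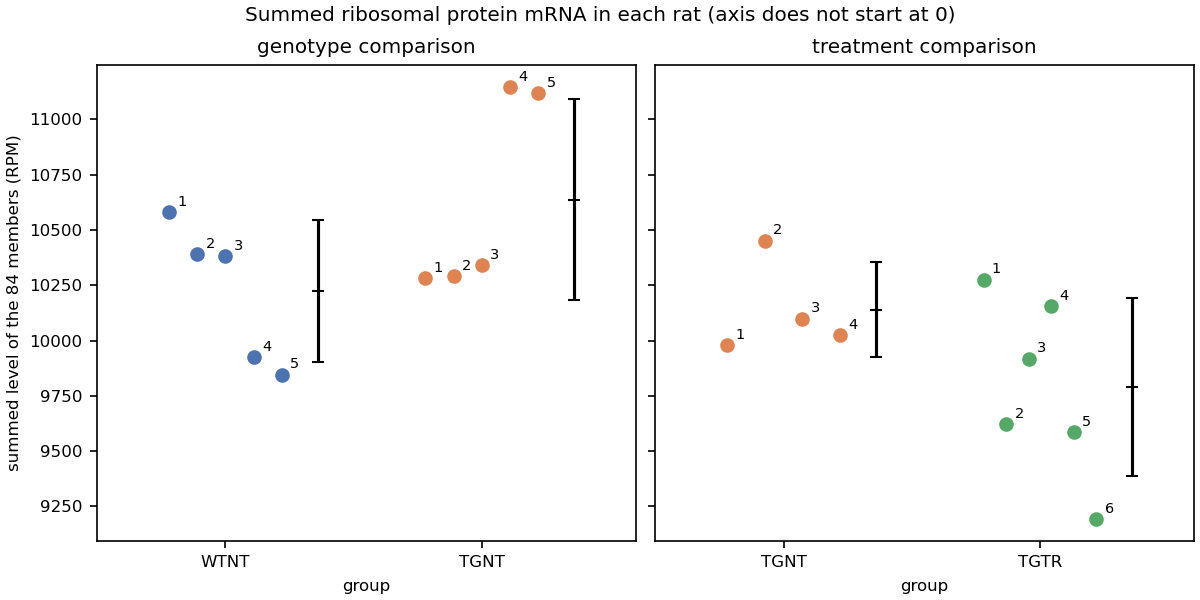
Summed level of the 84 members in RPM (vertical axis, not from 0) for each rat, numbered by replicate, with the mean and SD of the group as a bar. TGNT rats 4 and 5 of the genotype comparison lie at 11147.5 and 11121 RPM, above all WTNT rats, and TGTR rat 6 of the treatment comparison is lowest at 9191.5 RPM.

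Among proteins of the large subunit, 41 of 46 genes had a positive log2 fold change (median 0.07), and all 5 members with an unadjusted p under 0.05 were here. Rpl32 measured 78.4, 96.2, 92.4, 79.6 and 84.1 RPM in WTNT rats and 89.0, 89.9, 107, 114 and 111 RPM in TGNT rats. TGNT rats 3 to 5 lay above every WTNT rat and the other 2 inside their range. On the log2 scale TGNT rats were higher by 0.25 with a standard error of 0.0870, edgeR gave an adjusted p of 1, and the exact permutation test of RPM gave p = 0.0556 (two-sided). Rpl15, another protein of the large subunit, measured 105, 107, 109.9, 106 and 106 RPM in WTNT rats and 112, 106, 123, 125 and 124 RPM in TGNT rats. TGNT rat 2 alone lay inside the range of the WTNT rats. The difference was 0.15 on the log2 scale with a standard error of 0.0617, at an adjusted p of 1 by edgeR and p = 0.0238 by the exact permutation test (two-sided).

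Rpl35, a protein beside the exit of the peptide tunnel, measured 159, 149, 152, 144 and 145 RPM in WTNT rats and 154, 166, 167, 161 and 169 RPM in TGNT rats. TGNT rat 1 was the exception below the highest WTNT rat, and the difference was 0.13 on the log2 scale with a standard error of 0.0551, at an adjusted p of 1 by edgeR. The exact permutation test gave p = 0.0159 (two-sided). Rpl10a had 47.9 ± 4.43 RPM (SD, n = 5) in WTNT rats, against 55.2 ± 7.07 RPM (SD, n = 5) in TGNT rats, a log2 fold change of 0.21 with overlap between the groups. Rpl17 had 129.6 ± 7.28 RPM (SD, n = 5) against 144 ± 11.2 RPM (SD, n = 5), from counts that were fractions in every rat.

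Rpl37 was the only member whose groups did not overlap, and it was named after its values were seen. It measured 85.0 ± 1.89 RPM (SD, n = 5) in WTNT rats, against 89.5 ± 2.83 RPM (SD, n = 5) in TGNT rats. The exact permutation test gave p = 0.00794 (two-sided), the smallest p that 5 rats against 5 allow, and edgeR gave an adjusted p of 1. Of all genes with reads, 0.314% had every TGNT rat above every WTNT rat and 0.287% had the reverse, and nothing is read from a count of 1 member. Rpl41, the shortest ribosomal protein, had 194 ± 12.97 RPM (SD, n = 5) against 209 ± 2.98 RPM (SD, n = 5).

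Among the members named by role, the log2 fold changes were small. The stalk proteins, which bring elongation factors to the ribosome, had values of 0.09 for Rplp0, 0.06 for Rplp1 and 0.04 for Rplp2. Rpl5 and Rpl11, which bind MDM2 when ribosome assembly fails, had -0.04 and 0.11. Rpl10, which joins the large subunit late in its assembly, had 0.13, and Rpl3, beside the peptidyl transferase centre, had -0.02. Rpl13a had -0.01, Rpl22 had 0.08, Rpl38 had 0.04 and Rpl39, a protein of the exit tunnel, had 0.08. The signs of Rpl3, Rpl13a and Rplp2 changed in at least 1 alternative.

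In the small subunit, 24 of 31 genes had a positive log2 fold change (median 0.06), and none had an unadjusted p under 0.05. Rps27 and Rps29, zinc-binding proteins, had the highest values, 0.26 each (standard errors 0.127 and 0.125). Rps29 measured 112, 143, 148, 106 and 106 RPM in WTNT rats and 117, 126, 148, 177 and 168 RPM in TGNT rats. WTNT rats 2 and 3 lay among the TGNT rats, so the spread within the groups was large.

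Rps14, a protein of the platform of the small subunit, varied the other way among the same rats. It measured 151, 125, 128, 147 and 129 RPM in WTNT rats and 146, 150.3, 112, 115 and 116 RPM in TGNT rats, or -0.08 on the log2 scale with a standard error of 0.0920. The TGNT rats that were high in Rps29 were low in Rps14, and TGNT rats 1 and 2 were high in Rps14. Rps9 measured 141, 107, 103, 130.4 and 118 RPM in WTNT rats and 124, 127, 111, 102 and 100.05 RPM in TGNT rats, and was named for its likeness to Rps14 after its values were seen. Other members, among them Rps18, Rps23, Rpl13a and Rpl5, were also higher in TGNT rats 1 and 2 than in the other TGNT rats. They too were named after their values were seen, and the cause was not tested.

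Rps6, the target of the S6 kinases, had 294 ± 15.3 RPM (SD, n = 5) in WTNT rats, against 306 ± 8.76 RPM (SD, n = 5) in TGNT rats. Rpsa, also known as the laminin receptor, had a log2 fold change of 0.06, Rps19 had 0.12, Rps27a, which is made joined to ubiquitin, had 0.05, and Rps4x had 0.10.

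A mean under 10 counts was found for 4 members, which were 3 of the 6 paralogs and Rps19bp1. Rpl22l1, a paralog of Rpl22, had 62.7 ± 6.16 RPM (SD, n = 5) in WTNT rats, against 67.3 ± 13.1 RPM (SD, n = 5) in TGNT rats. Rps27l had 6.40 ± 0.448 and 7.03 ± 0.545 RPM (SD, n = 5 each). Rpl36a and Rpl36al share most of their sequence and both had fractional counts in 8 of 10 rats, with log2 fold changes of 0.11 and 0.05. Rpl3l, the form of Rpl3 in heart and skeletal muscle, had 0 to 4 counts, and Rpl39l, a form of the testis, also had 0 to 4 counts, so no fold is given. Rps4y2 had 4 to 12 counts and Rps19bp1 3 to 13 counts.

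**Figure D3:**
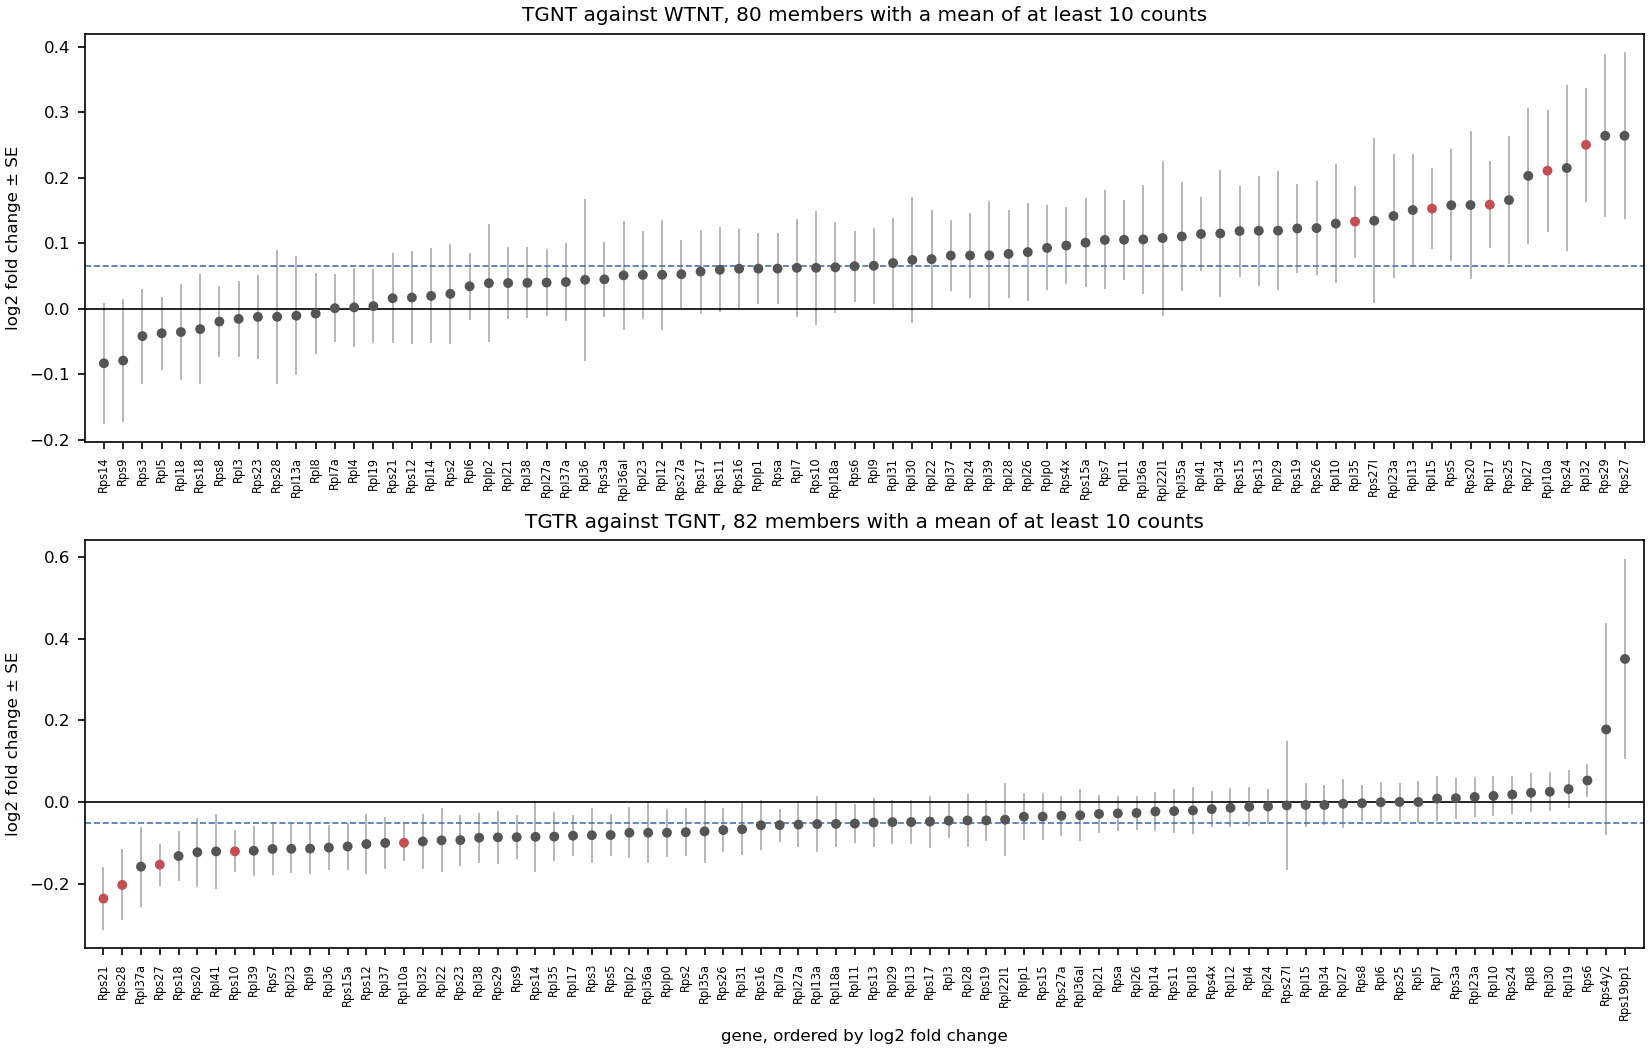
Log2 fold change (vertical axis) with its standard error for each member with a mean of at least 10 counts, ordered by value, with 80 members for TGNT against WTNT (top) and 82 for TGTR against TGNT (bottom). Red points had an unadjusted p under 0.05, the dashed line is the median, and most points lie above 0 in the top panel and below it in the bottom panel.

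Genes around the ribosome were described from fixed lists, and 0 genes of any list had an adjusted p under 0.05 in the genotype comparison. Of ribosomal proteins outside the rule, Fau had a log2 fold change of 0.02 and Gnb2l1 (RACK1) of 0.12. Elongation factors and other TOP mRNAs had 9 of 18 genes higher (median 0.00), and Eef1a1, with the most counts, had 2134 ± 55.4 RPM (SD, n = 5) in WTNT rats, against 2180 ± 119 RPM (SD, n = 5) in TGNT rats. Ribosome biogenesis genes had 17 of 44 higher (median -0.02), from -0.26 for Rrs1 to 0.28 for Polr1b, a subunit of RNA polymerase I. Ncl (nucleolin), with the most counts of the list, had -0.05. Regulators of mTORC1 and TOP mRNAs had 11 of 16 higher (median 0.02), and ribosome quality control genes had 2 of 7 higher (median -0.01).

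Mitochondrial ribosomal proteins had 52 of 69 genes higher in TGNT rats (median 0.07). Mrpl22 had the highest value, 0.43 with a standard error of 0.137 at an adjusted p of 1 by edgeR, and Mrpl51, with the most counts, had 0.04. Oxidative phosphorylation genes had 56 of 74 higher (median 0.06), and among those with a mean of at least 10 counts the values ran from -0.24 for Ndufa4l2 to 0.36 for Ndufa11, and Atp5b, with the most counts, had 0.01. Proteasome subunits had 19 of 41 higher (median 0.00), and among those with a mean of at least 10 counts the values ran from -0.10 for Psmd11 to 0.17 for Psmb2. The cytosolic ribosomal protein genes thus shared their positive median with both mitochondrial lists. At an unadjusted p under 0.05, where 2.02% of all genes with reads were higher and 1.76% lower, 3 mitochondrial ribosomal protein genes were higher and 0 lower. The counts were 2 higher and 1 lower for oxidative phosphorylation, 1 higher and 1 lower for ribosome biogenesis, and 1 higher and 0 lower for the mTORC1 list.

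Cell type markers also moved among rats, and 0 had an adjusted p under 0.05 in the genotype comparison. All 8 oligodendrocyte markers were lower in TGNT rats (median -0.21), with summed levels of 6805, 9167, 10446.5, 8075 and 4603 RPM in WTNT rats, against 4352, 7000.4, 5361, 7699 and 7891 RPM in TGNT rats. No marker of any list was at 0 in all rats. Hippocampal neuron markers were lower in 9 of 10 genes (median -0.15), with summed levels of 1153 to 1882 RPM in WTNT rats, against 1178 to 1513 RPM in TGNT rats. All 9 microglia markers were higher (median 0.10), with summed levels of 268 to 287 RPM in WTNT rats, against 283 to 300.5 RPM in TGNT rats. Neurons had 8 of 10 markers lower (median -0.04), astrocytes 4 of 8 (0.01), choroid plexus 7 of 10 (-0.20), endothelium 3 of 6 (0.01) and blood 1 of 6 (0.04). An unadjusted p under 0.05 was found for 2 of 8 oligodendrocyte and 1 of 10 choroid plexus markers, all lower, and for 0 of the other cell type markers. The part of these in the levels of the ribosomal protein genes was not tested. In bulk tissue, fewer cells of a type and less RNA per cell cannot be told apart.

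The treatment comparison asks what diazoxide and dibenzoylmethane changed in transgenic females. Most ribosomal protein mRNAs had a slightly lower mean level in TGTR than in TGNT rats, none passed the adjusted threshold, and the summed level was lowest in TGTR rats 2, 5 and 6. By edgeR's quasi-likelihood test, 0 of 84 members had an adjusted p under 0.05, as did 0% of the 14861 genes with reads. Without adjustment 5 members (5.95%) had a p under 0.05 and all were lower, against 2.23% of all genes with reads called lower, while 0 members and 3.44% of all genes were called higher. DESeq2 called 4 members without adjustment, edgeR's likelihood ratio and exact tests 3, limma-trend 7 (1 higher and 6 lower), and all of them 0 with it. Of all genes tested, DESeq2 called 1.67% lower without adjustment, the likelihood ratio test 1.92% and the exact test 1.57%. For limma-trend the share was 2.89% to 3.05% lower and 3.56% to 3.67% higher. Over all genes these tools did make adjusted calls, 9 by DESeq2, 9 by edgeR's likelihood ratio test, 8 by its exact test and 1 by limma-trend. In all, 71 of 84 members had a negative log2 fold change, where 7399 of all 14861 genes did, and from 51 to 73 did under the other scalings. Their median was -0.05, against 0.00 over all genes with reads. The count of 51 came with library sizes alone as the scale, where the median was -0.01 and that of all genes 0.04. In that setting 1 member had an unadjusted p under 0.05, lower, and of all genes with reads 1.16% were called lower and 5.81% higher. With the replicate number as a block 2 members were called, both lower, against 1.24% of all genes, 57 of 84 were lower and the median was -0.02.

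The summed level of the members was 9980.4, 10452, 10099.5 and 10024 RPM in TGNT rats 1 to 4. In TGTR rats 1 to 6 it was 10276, 9622, 9918, 10154, 9585 and 9191.5 RPM. TGTR rats 1 and 4 lay among the TGNT rats and the other 4 below all of them. The low level of TGTR rat 5 depends on the scaling, since the members' share of its unscaled counts was the highest of the 10 rats, while TGTR rat 6 was lowest on both scales. In TGTR rat 6 only 4 of 77 subunit genes lay above their own mean, in rats 2 and 5 15 and 21 did, and in TGNT rat 2 66 did. The median log2 fold change was -0.03 without TGTR rat 6, and 3 members had an unadjusted p under 0.05. Without TGTR rat 1 the count was 13, without TGNT rat 2 it was 2, and without TGNT rat 3 or TGTR rat 4 it was 3. Of all genes with reads, 2.19% were called lower without TGTR rat 1, and the share ran from 1.78% to 3.07% over all rats left out in turn.

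TGTR rat 5 stood apart by choroid plexus genes. Ttr, which the choroid plexus secretes, measured 2501 RPM in this rat and 108 RPM in TGTR rat 6, and 0.714 to 11.7 RPM in the other 8 rats. All 10 markers of the choroid plexus were higher in TGTR rats (median 2.52), with summed levels of 93.4, 112, 134 and 140.3 RPM in TGNT rats, against 147, 102, 124, 141, 3666 and 304 RPM in TGTR rats. Blood markers were higher in 6 of 6 genes, with the most counts and a log2 fold change of 1.09 for Hba1. Their summed level was 1751 RPM in TGTR rat 4 and 208 to 336 RPM in the other 9 rats. The part of either list in the levels of the members was not tested. Without TGTR rats 5 and 6 together, a setting chosen after the data were seen, 58 of 84 members were lower and the median was -0.03. In this setting 3 members had an unadjusted p under 0.05, all lower, and of all genes with reads 2.27% were called lower and 2.34% higher.

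**Figure D4:**
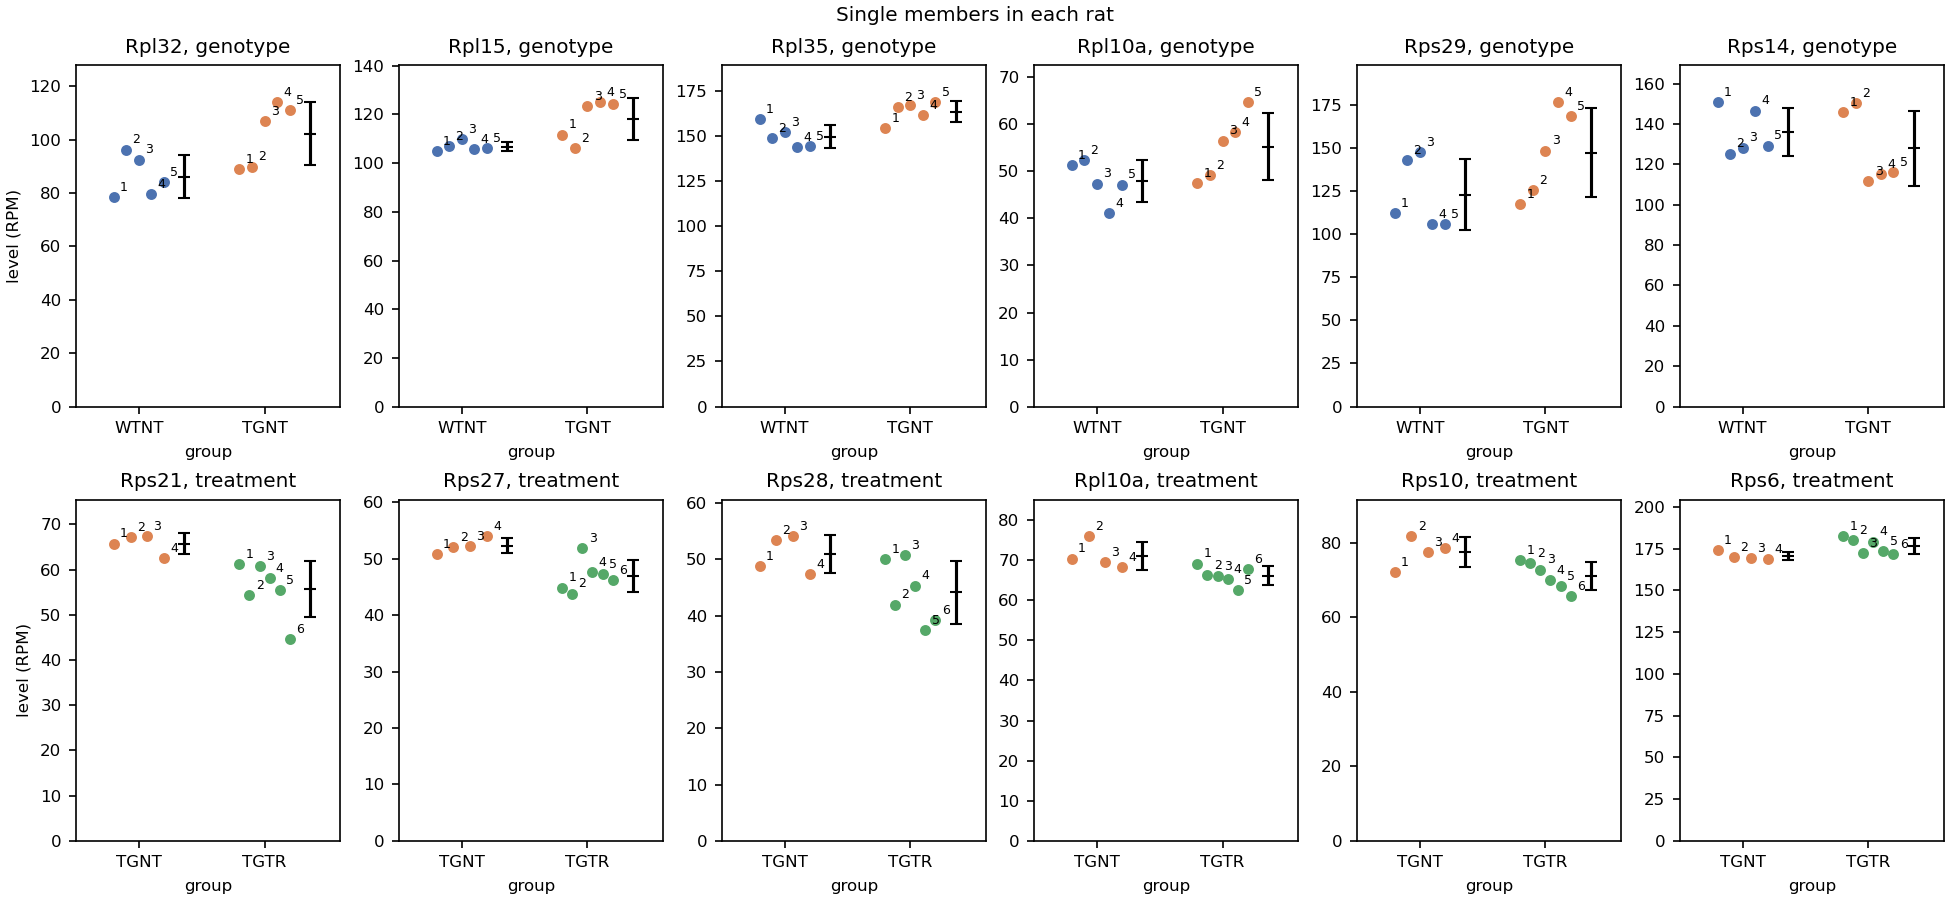
Level in RPM (vertical axis, from 0) of 6 members in the genotype comparison (top) and 6 in the treatment comparison (bottom), 1 point per rat numbered by replicate, with the mean and SD of each group as a bar. In the top row TGNT rats 3 to 5 lie above TGNT rats 1 and 2 in Rpl32, Rpl15 and Rps29 and below them in Rps14, and in the bottom row all TGTR rats lie below all TGNT rats in Rps21.

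Of the 5 members with an unadjusted p under 0.05, 4 belong to the small subunit, where 27 of 31 genes had a negative log2 fold change (median -0.07). Rps21, a protein of the small subunit, had the lowest p among the members. It measured 65.7, 67.3, 67.4 and 62.6 RPM in TGNT rats, and in TGTR rats the lowest value was 44.5 (rat 6), the median 56.8 and the highest 61.2 RPM. Every TGTR rat lay below every TGNT rat, and edgeR gave -0.24 on the log2 scale with a standard error of 0.0766 and an adjusted p of 0.964. The exact permutation test gave p = 0.00952 (two-sided), the smallest p that 4 rats against 6 allow. Of all genes with reads, 0.639% had every TGTR rat below every TGNT rat and 0.686% had the reverse, and Rps21 was the only such member.

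Rps27 measured 50.8, 52.0, 52.3 and 54.0 RPM in TGNT rats and from 43.8 to 51.9 RPM (median 46.7) in TGTR rats, where rat 3 was the only rat above the lowest TGNT rat. The difference was -0.15 on the log2 scale with a standard error of 0.0514, at an adjusted p of 0.964 by edgeR and p = 0.0190 by the exact permutation test (two-sided). Rps28 measured 48.7, 53.4, 54.1 and 47.3 RPM in TGNT rats and from 37.5 to 50.7 RPM (median 43.6) in TGTR rats, lowest in rats 5 and 6. The groups overlapped, and the difference was -0.20 on the log2 scale with a standard error of 0.0867, at an adjusted p of 0.964 by edgeR and p = 0.0667 by the exact permutation test (two-sided). Rps10, whose counts were fractions in every rat, had 77.4 ± 3.99 RPM (SD, n = 4) and 71.1 ± 3.75 RPM (SD, n = 6). Rps18 had 104 ± 3.45 RPM (SD, n = 4) and 95.2 ± 7.71 RPM (SD, n = 6), with TGTR rat 6 at 80.2 RPM.

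Rps6 was among 4 small subunit genes with a positive value. It measured 174, 169.8, 169.5 and 169 RPM in TGNT rats and from 172 to 183 RPM (median 176) in TGTR rats, and all 6 TGTR rats lay above the mean of the TGNT rats. On the log2 scale the difference was 0.05 with a standard error of 0.0406, edgeR gave an adjusted p of 0.990, and the exact permutation test gave p = 0.0381 (two-sided). The log2 fold changes were -0.03 for Rpsa, -0.08 for Rps14, -0.04 for Rps19, -0.03 for Rps27a and -0.02 for Rps4x, and all but that of Rps19 changed sign in at least 1 alternative.

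In the large subunit, 39 of 46 genes had a negative log2 fold change (median -0.05), and Rpl10a had an unadjusted p under 0.05. It measured 70.4, 76.0, 69.5 and 68.2 RPM in TGNT rats and from 62.5 to 69.1 RPM (median 66.1) in TGTR rats, or -0.10 on the log2 scale with a standard error of 0.0455 and an adjusted p of 0.990 by edgeR. The exact permutation test gave p = 0.0190 (two-sided), and the groups overlapped in TGTR rat 1 and TGNT rat 4. Rpl36 had 47.0 ± 2.31 RPM (SD, n = 4) and 43.5 ± 2.51 RPM (SD, n = 6), and Rpl39 had 44.0 ± 2.28 and 40.4 ± 2.87 RPM. The stalk genes had -0.07 for Rplp0, -0.04 for Rplp1 and -0.07 for Rplp2. Rpl5 had 0.00, Rpl11 -0.05, Rpl3 -0.05, Rpl10 0.02, Rpl13a -0.05, Rpl22 -0.09 and Rpl38 -0.09. Of these, Rplp1, Rpl5, Rpl10 and Rpl13a changed sign in at least 1 alternative.

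The paralogs with a mean of at least 10 counts differed by less than their spread. Rpl22l1 had 29.6 ± 1.54 RPM (SD, n = 4) in TGNT rats, against 28.7 ± 3.43 RPM (SD, n = 6) in TGTR rats. Rps27l had 4.38 ± 1.05 and 4.36 ± 0.232 RPM, and Rpl36a and Rpl36al had log2 fold changes of -0.07 and -0.03. Rpl39l had 0 to 6 counts and Rpl3l 1 to 6. Rps4y2 had 12 to 27 counts. Rps19bp1, at 9 to 20 counts, had 0.995 ± 0.257 RPM (SD, n = 4) and 1.27 ± 0.223 RPM (SD, n = 6), the highest log2 fold change of the members, 0.35 with a standard error of 0.245 and an adjusted p of 0.990 by edgeR.

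Of the lists around the ribosome, 0 genes had an adjusted p under 0.05 in the treatment comparison. Fau had -0.07 and Gnb2l1 0.03. Elongation factors and other TOP mRNAs had 11 of 18 genes lower (median -0.02), from -0.11 for Eif3e to 0.07 for Tpt1, and Eef1a1 had 2116 ± 39.5 RPM (SD, n = 4) and 2067 ± 59.6 RPM (SD, n = 6). Ribosome biogenesis genes had 31 of 44 lower (median -0.03), and Nmd3, an export adaptor of the large subunit, was highest at 0.18. Regulators of mTORC1 and TOP mRNAs had 8 of 16 lower (median -0.01), and ribosome quality control genes 3 of 7 (median 0.00).

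Mitochondrial ribosomal proteins had 41 of 69 genes lower in TGTR rats (median -0.02), oxidative phosphorylation genes 49 of 74 (median -0.03) and proteasome subunits 31 of 41 (median -0.03). The genes with the most counts, Mrpl51, Atp5b and Psmd2, had log2 fold changes of 0.08, 0.01 and -0.03. Among the markers, endothelium had 6 of 6 higher (median 0.19), with the most counts for Flt1, and oligodendrocytes 8 of 8 higher (median 0.22), with the most counts for Mbp. Hippocampal neurons had 9 of 10 lower (median -0.11), neurons 9 of 10 (-0.03), astrocytes 8 of 8 (-0.03) and microglia 7 of 9 (-0.03). At an unadjusted p under 0.05, where 3.44% of all genes with reads were higher and 2.23% lower, 5 of 10 choroid plexus and 4 of 6 endothelium markers were higher and 0 of the other cell type markers were called. Of the lists around the ribosome, 1 ribosome biogenesis gene and 1 oxidative phosphorylation gene were higher, and 1 gene each of the elongation factor, oxidative phosphorylation and proteasome lists was lower. The part of these in the ribosomal protein levels was not tested.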

How the data were processed

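Stranded mRNA libraries were made from hippocampal RNA, 1 per rat. The submitters' processing notes name bcl2fastq 2.17, Bowtie2 2.1.0, RSEM 1.2.15, edgeR and build rn6. The authors deposited estimated counts per symbol and a signal in RPM, the counts scaled with TMM factors within each table. Estimated counts were rounded and fitted per comparison with edgeR 4.0.16 in R 4.3.3 (TMM, quasi-likelihood test, all 17168 symbols, Benjamini-Hochberg adjustment, threshold 0.05). For a single gene, RPM of the groups was compared by an exact permutation test (two-sided). Deviations are of log2(RPM + 1). A single count is worth 0.0706 to 0.171 RPM, depending on the rat. The fits were tested on simulated data. Alternatives were other scalings and filters, DESeq2 1.42.0, limma 3.58.1, a replicate block and leaving out rats. Named members were the 8 with the lowest p among those with a mean of at least 10 counts, and a list by role. From each list the gene with the most counts and, where the mean reached 10 counts, those with the lowest and highest fold change could be named. Members and lists were chosen with earlier results of these data known.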

Additional observations from a re-analysis of the deposited data

Results flagged for a closer look

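In some groups the highest or lowest rat stood far from the next one, by most of the distance between the group's extremes. Of 138 groups of values, 7 held such a rat, and chance gives about 6.9 (1 in 20). In the genotype comparison Rpl36a was at 35.96 RPM in TGNT rat 1, against 39.5 RPM in the next rat. Rpl36al was at 34.99 RPM in WTNT rat 4, against 43.11 RPM in the next, and Rpl41 at 204.1 RPM in TGNT rat 3, against 209.7 RPM. In the treatment comparison the median deviation of the subunit genes was 0.09657 (log2) in TGNT rat 2, against 0.03085 in the next TGNT rat. Rpl39 was at 47.38 RPM in the same rat, against 43.16 RPM in the next. Rpl39l was at 0.1503 RPM in TGNT rat 3, from 2 counts, against 0.257 RPM in the next. Rps18 was at 80.24 RPM in TGTR rat 6, against 95.62 RPM in the next TGTR rat. No cause of these values was tested.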

How the results depend on the processing

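The number of members with an adjusted p under 0.05 was 0 under every alternative run, in both comparisons. The median log2 fold change kept its sign in all of them, but it is about as small as the spread between rats, so its size is uncertain. It ran from 0.03 to 0.09 (genotype) and from -0.07 to -0.03 (treatment) when single rats were left out, and from 0.05 to 0.08 and from -0.06 to -0.01 under the other alternatives. In the treatment comparison it was -0.01 with library sizes alone, with 51 of 84 members lower, and -0.02 with the replicate number as a block, with 57 lower. The number with an unadjusted p under 0.05 was less stable. Leaving out single rats gave 1 to 15 members in the genotype and 2 to 13 in the treatment comparison. Of all genes with reads, 1.23% to 3.17% were then called higher (genotype) and 1.78% to 3.07% lower (treatment). In the treatment comparison the number of members was 1 with library sizes alone, 3 with edgeR's likelihood ratio or exact test, and 3 without TGTR rats 5 and 6. Of all genes, 1.16% were called lower with library sizes alone, 1.92% and 1.57% with these tests, and 2.27% without these rats. With the replicate number as a block the number of members was 3 (genotype) and 2 (treatment), and the adjusted count stayed at 0. With this block 2.08% of all genes were called higher (genotype) and 1.24% lower (treatment). The labels tie rats with the same number by that number alone, and whether they shared anything else is not known. Their deviations correlated with r from -0.21 to 0.34 (genotype) and from -0.576 to 0.142 (treatment). The cause of these shifts was not tested. No named member with an unadjusted p under 0.05 changed sign. Of the members named by the rule, which leaves out Rpl37 and Rps9, 6 of 33 (genotype) and 11 of 32 (treatment) changed sign in at least 1 alternative. Depth limits Rpl3l and Rpl39l, with 6 counts or fewer per rat. The settings with subunit genes only and without TGTR rats 5 and 6 were chosen after the data were seen.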
